A study of Xenopus laevis with 9 samples.

Results

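Small nucleolar RNAs (snoRNAs) and guide RNAs were followed through the pores of a filter by the reads counted on their annotated entries. Whether these reads came from the mature RNAs or from longer transcripts that contain them was not tested. The members are the entries whose RNA type is snoRNA or guide_RNA in the part in hand of the study's source table of RNA fold changes, joined by identifier to the counts. They number 43 of the 44478 genes counted: 42 snoRNAs and 1 guide RNA, XBXL10_1g13418. The part in hand holds 1999 of the 19752 entries of that table, so the members are not all snoRNAs of the frog. RNA came from cytoplasmic extract of eggs of wild-type *Xenopus laevis* females in which ovulation had been induced with gonadotropins. The 3 conditions were unfiltered extract (input, time 0), filtrate taken at low pressure at an early time (T1, time 1) and filtrate taken at high pressure at a late time (T2, time 2), with 3 biological replicates each and 9 libraries in all. The filters were polyethersulfone membranes with 30 nm pores. Time and pressure changed together between T1 and T2, so their parts cannot be told apart. All 3 conditions share the additions made to the extract: cytochalasin D and nocodazole, which act on actin and on microtubules, protease inhibitors, sucrose and a trace of DMSO. The extract was crushed and spun out of the eggs and is not made of whole cells. Conditions share extracts, since the methods count fewer biological samples than libraries, but neither they nor the labels say that libraries of the same replicate number came from the same extract. A higher value in a filtrate is a larger share of its reads, or for single genes of a library size scaled between libraries. More passage of an RNA and less passage of the others cannot be told apart.

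snoRNAs are short non-coding RNAs that pair with other RNAs and bring a modifying enzyme to a chosen base. Box C/D snoRNAs guide 2′-O-methylation and box H/ACA snoRNAs guide pseudouridylation, mostly of ribosomal RNA, and a few take part in cutting the ribosomal precursor. A related group, often annotated as guide RNAs, works in Cajal bodies on spliceosomal RNAs. In vertebrates most of them are cut from introns of host genes, many of which encode ribosomal proteins or translation factors, and each works as a small ribonucleoprotein particle with a set of core proteins. The egg is a large store of such maternal particles.

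The sources in hand give each member only an identifier and a class, not a name, a target or a sequence, so members are called by identifier. Their identifier numbers fell into 18 runs of neighbours (gaps of at most 3), of which 12 held more than 1 member and 37 members in all. For 14 runs, an mRNA entry of the same table stands within 4 numbers before the run. In the RefSeq table of the *X. laevis* v10.1 assembly the spans of several of these genes hold about as many small RNA genes as the run has members, whereas 3 of the 14 hold 0 (LOC108710474, LOC108709567 and LOC108704363, beside runs of 2, 1 and 1 members). The rps3.S gene (a protein of the small ribosomal subunit; chromosome 2S, 165013239 to 165026365) holds 4 small RNA genes of 144 to 147 bp, and 4 members follow its identifier. The cct6a.S gene (a subunit of the cytosolic chaperonin; 2S, 89833648 to 89849869) holds 4 of 127 to 138 bp beside a run of 4. The atp5f1b.S gene (a subunit of ATP synthase; 2S, 130370415 to 130375921) holds 3 of 72 to 73 bp beside a run of 3. The rpl4.L gene (a protein of the large ribosomal subunit; 3L, 123723733 to 123729807) holds 6 of 70 to 100 bp beside a run of 5. The tipin.L gene (a replication fork protein; 3L, 123655272 to 123665447) holds 1 of 134 bp beside the guide RNA. No file ties a member to one of these RefSeq genes. Runs are named below by the neighbouring mRNA, which states an order of identifiers and not a host gene. Over the whole assembly, RefSeq lists 579 snoRNA genes of 62 to 316 bp (median 98) and 31 guide RNA genes of 86 to 375 bp (median 135).

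Reads counted on genes numbered 65503682 to 90000652 per input library, 23509338 to 37265313 per T1 library and 60330615 to 93451602 per T2 library. Reads that mapped to several places, which were not counted, made up 1.69 to 1.85% of the input libraries, 4.06 to 6.76% of the T1 libraries and 1.98 to 2.85% of the T2 libraries. Unmapped reads took 7.23 to 7.71%, 12.4 to 20.1% and 7.04 to 9.24% of the reads in the same order of conditions. Near-identical copies of a snoRNA can share reads, so single members are uncertain to that extent, and the part of the multimapping reads in the results was not tested. Of 7 egg and oocyte markers, all passed the filter on low counts. By edgeR's test 2 of them (npm2.L and zp4.L) were higher at T1 than in the input, beside 6.44% of all genes tested. The 14 markers of other tissues that were listed have no entry in the part of the table in hand. That part holds 1999 of the 19752 entries, so their absence says nothing about other tissues. All 43 members passed the filter on low counts. At 3 reads or fewer were at most 2 members in each input library, 5, 9 and 12 members in T1 replicates 1, 2 and 3, and 6, 4 and 1 in T2 replicates 1, 2 and 3. At these depths 3 reads were worth 0.0321 to 0.128 CPM (reads of a gene per 1000000 reads on genes), and such limits cover counting error only.

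As a group, the members took a larger share of the reads at T1 than in the input. Their summed reads came to 2063, 1228 and 4439 CPM in T1 replicates 1, 2 and 3, against 351, 318 and 245 CPM in the input. The lowest T1 library thus stood above the highest input library. The means were 2577 ± 1666 CPM at T1 and 305 ± 54.5 CPM in the input (SD, n = 3 each), a ratio of 8.46. At T2 the sums were 416, 322 and 1788 CPM, with a mean of 842 ± 820 CPM (SD, n = 3) and a ratio of 2.76 to the input. T2 replicate 3 carried most of that ratio, which was 1.21 without it; T2 replicate 2 lay within the range of the input libraries. Without T1 replicate 3, the highest T1 library, the T1 ratio was 5.40.

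**Figure D1:**
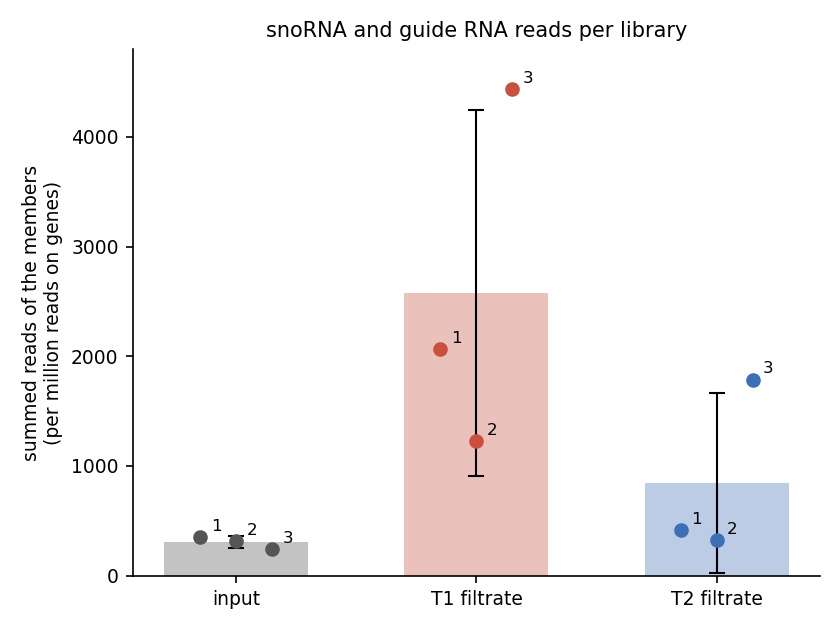
Summed CPM of the 43 members, relative to all reads on genes, in each library (points, numbered by replicate), with the mean (bar) and SD (line) of the 3 libraries of input, T1 and T2. The 3 T1 libraries lie between 1228 and 4439 CPM, the input libraries between 245 and 351 CPM, and T2 replicate 3 (1788 CPM) stands apart from T2 replicates 1 and 2 (416 and 322 CPM).

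The comparison of T1 with the input asks which RNAs pass the pores early. Of the 43 members, 39 had a positive log2 fold change, a share of 90.7% beside 48.0% of all 20148 genes tested. The median of the members was 3.63, that of all genes was -0.09, and 2.99% of all genes lay above the members' median. The members ranged from -5.97 to 6.32. A fitted change of at least 3 on the log2 scale was found for 25 of them, beside 1089 of the 20148 genes tested. By edgeR's quasi-likelihood test with Benjamini-Hochberg adjustment over all genes, 7 members rose and 0 fell, beside 6.44% of all genes called higher and 5.08% called lower. At an unadjusted p under 0.05 these numbers were 19 higher and 1 lower, where 13.6% of all genes were higher and 18.8% lower. The 3 T1 libraries lay above all 3 input libraries for 21 members and below them for 0, where 15.7% of all genes had T1 libraries wholly above the input and 27.8% wholly below. The 7 calls depended on the input replicates: without input replicate 1, 2 or 3 edgeR's test called 0 members, and 2%, 1.99% and 2.81% of all genes. In these fits 11, 15 and 13 members had an unadjusted p under 0.05, beside 23.9%, 24.3% and 25.2% of all genes. DESeq2's Wald test called 24 members, of which 22 were higher at T1, and 27.9% of all genes. With the replicate number as a block in edgeR's fit, 3 members were called (XBXL10_1g11186, XBXL10_1g11190 and XBXL10_1g12477), beside 7.44% of all genes, so the other 4 calls do not hold if the numbers mark shared extracts.

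**Figure D2:**
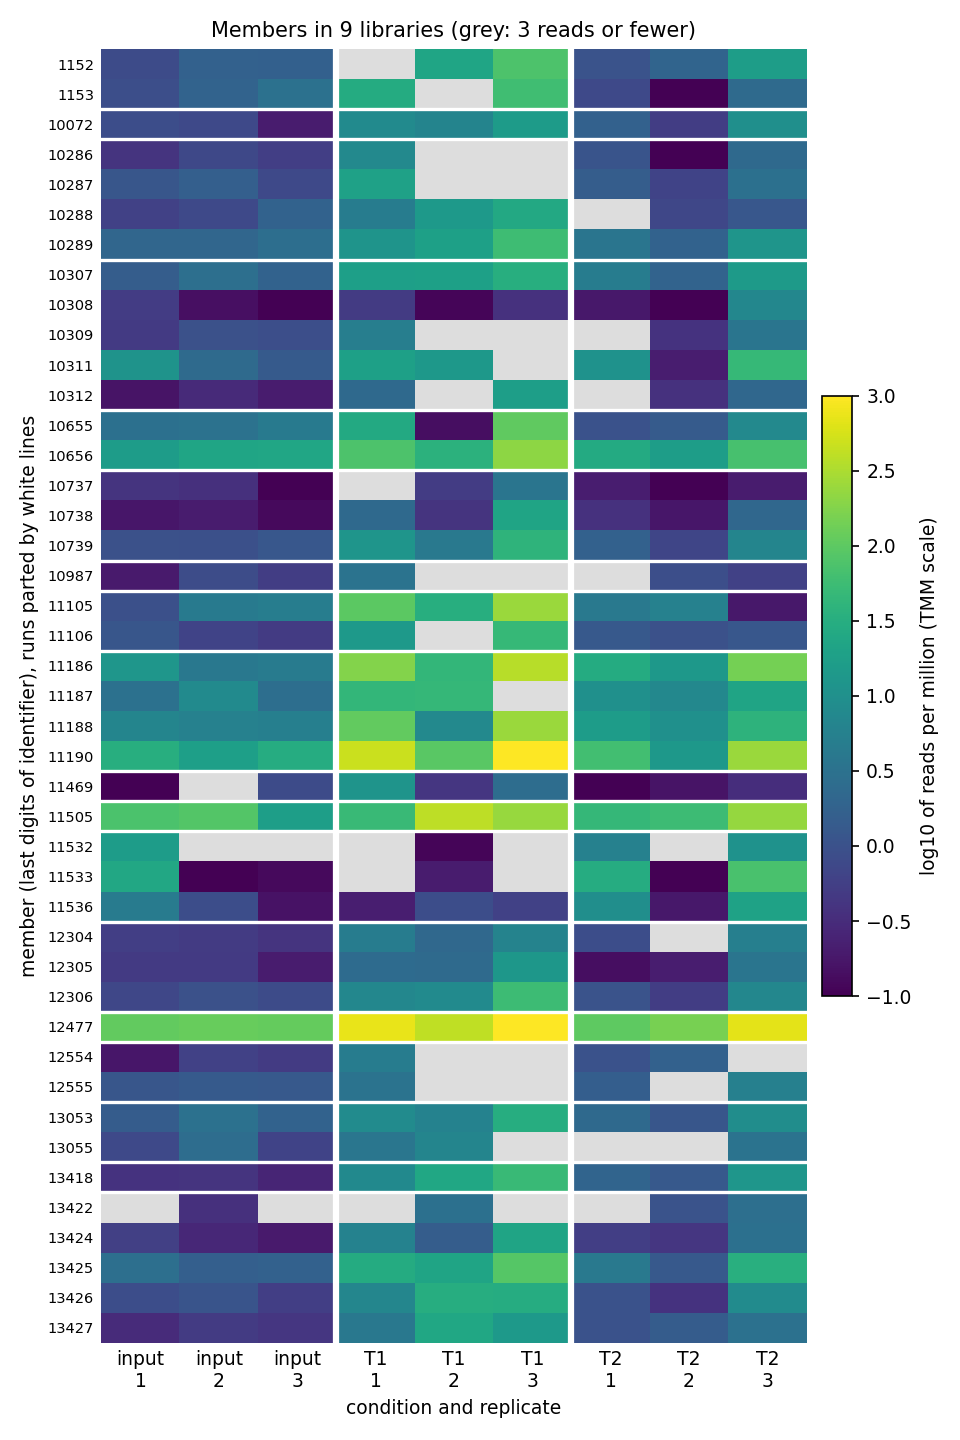
CPM (log10 colour scale, scaled by TMM) of each of the 43 members (rows, in order of identifier, runs parted by white lines) in each of the 9 libraries (columns), with values beyond the ends of the colour scale drawn in its end colours; grey marks 3 reads or fewer. Most rows are brighter at T1 than in the input, grey cells are most frequent in T1 replicates 2 and 3 (9 and 12 members), and the run from XBXL10_1g11532 to XBXL10_1g11536 is bright only in input replicate 1 and T2 replicates 1 and 3.

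The guide RNA XBXL10_1g13418 had the highest fitted change of all members. It had 7.78, 24.2 and 51.9 CPM in the T1 libraries (here and for single members below, CPM on the TMM scale), against 0.383, 0.405 and 0.255 CPM in the input. All T1 libraries were far above all input libraries, with means of 28.0 ± 22.3 and 0.348 ± 0.0807 CPM (SD, n = 3 each), an 80.4-fold ratio. Its log2 fold change was 6.32 (standard error 1.53, adjusted p = 0.0268, edgeR). The T2 libraries held 1.93, 1.31 and 12.6 CPM, also above every input library, but that log2 fold change of 3.92 did not pass the test (adjusted p = 0.393, edgeR).

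The run next to rps3.S was the richest of the longer runs, and 3 of its 4 members rose at T1 by edgeR's test. XBXL10_1g11190 had 474, 93.5 and 1210 CPM at T1, against 31.8, 18.0 and 29.5 CPM in the input. Its log2 fold change was 4.49 (standard error 1.09, adjusted p = 0.0269, edgeR), and its T1 replicates differed among themselves more than 10-fold. XBXL10_1g11186 had 179, 43.8 and 367 CPM at T1, against 12.8, 4.06 and 4.65 CPM in the input (log2 fold change 4.78, standard error 1.06, adjusted p = 0.0193, edgeR). XBXL10_1g11188 had 111, 7.52 and 254 CPM at T1, against 6.67, 5.63 and 5.37 CPM in the input. T1 replicate 2 was only just above the input for this member, whose log2 fold change was 4.40 (standard error 1.06, adjusted p = 0.0258, edgeR). The fourth member, XBXL10_1g11187, also had a positive log2 fold change (2.69), but differed in T1 replicate 3. It had 43.8 and 46.3 CPM (1589 and 1624 reads) in T1 replicates 1 and 2, against 3.06, 8.14 and 2.79 CPM in the input. In T1 replicate 3, where its neighbours were at their highest, it had a single read. Its groups therefore overlapped (adjusted p = 0.258, edgeR).

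XBXL10_1g12477, next to slc25a3.L (the mitochondrial phosphate carrier), was the most abundant member in the mean of every condition. It had 732, 412 and 2252 CPM at T1, against 111, 118 and 114 CPM in the input, where its replicates lay closest together. The log2 fold change was 3.31 (standard error 0.78, adjusted p = 0.0243, edgeR). The T2 libraries held 100, 152 and 690 CPM, so that T2 replicate 1 lay below the input and the other two above it. Without this member the summed T1 share was still 8.67-fold that of the input.

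Of the other 2 calls, XBXL10_1g11105 belongs to a run of 2 without a neighbouring mRNA. It had 96.5, 32.3 and 248 CPM at T1, against 0.956, 4.28 and 4.92 CPM in the input (log2 fold change 5.21, standard error 1.27, adjusted p = 0.0272, edgeR). At T2 it was back at the input level, with 4.21, 5.72 and 0.183 CPM. XBXL10_1g13425, in the run next to rpl4.L, had 28.8, 21.7 and 89.7 CPM at T1, against 2.87, 1.65 and 1.77 CPM in the input (log2 fold change 4.48, standard error 1.30, adjusted p = 0.0497, edgeR). This last call lay closest to the threshold, and it was lost in 7 of 16 alternatives: with library size only, with the block, without any one of the input replicates, without T1 replicate 3 and without T2 replicate 1. XBXL10_1g11105 was lost in 5: with the block, without any one of the input replicates and without T1 replicate 3.

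Several other abundant or strongly shifted members missed the threshold, of which 3 are given here. XBXL10_1g10738, next to atp5f1b.S, had the second highest fitted change (log2 fold change 5.58, standard error 2.13, adjusted p = 0.103, edgeR). It was sparse, with 2.32, 0.399 and 21.8 CPM at T1, against 0.177, 0.202 and 0.128 CPM in the input, and its size rested on T1 replicate 3. XBXL10_1g11505 ranked second in mean level in the input, with 52.2, 399 and 237 CPM at T1, against 73.6, 85.0 and 17.6 CPM in the input. These groups overlapped, since T1 replicate 1 lay below input replicates 1 and 2 (log2 fold change 1.97, standard error 0.85, adjusted p = 0.137, edgeR). XBXL10_1g10656, next to kansl2.S, had 75.3, 37.0 and 207 CPM at T1, against 16.1, 22.3 and 23.0 CPM in the input, without overlap (log2 fold change 2.38, adjusted p = 0.0552, edgeR).

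**Figure D3:**
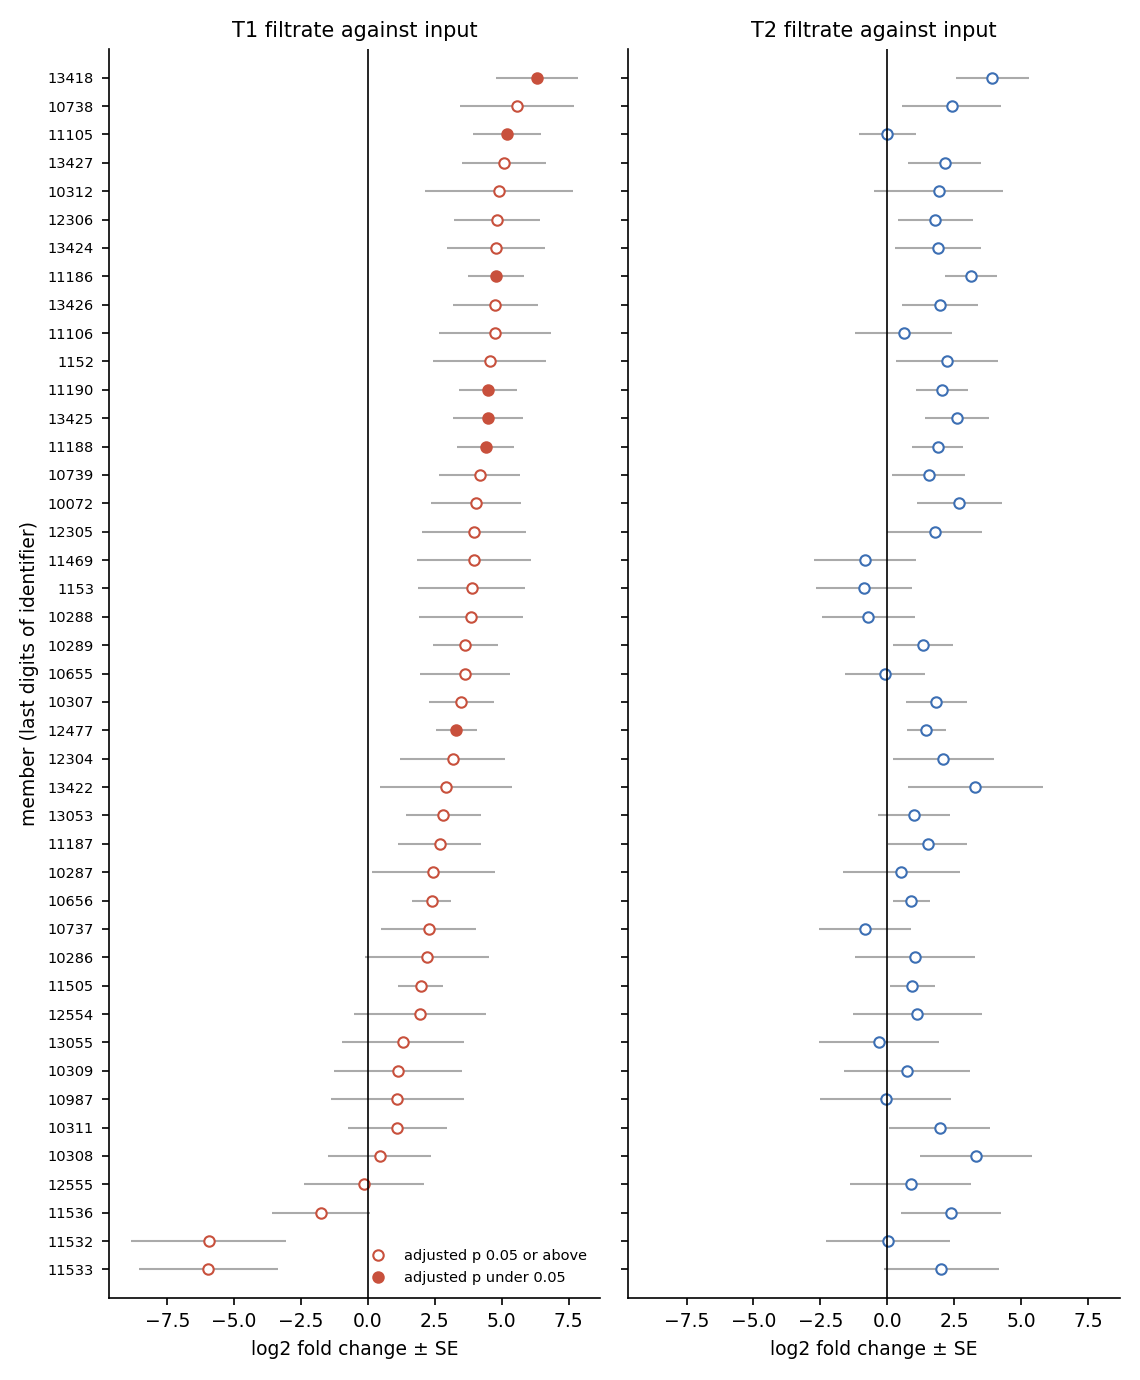
Fitted log2 fold change of each member (rows, ordered by the T1 value) against the input, with its standard error (line), at T1 (left) and T2 (right); filled points have an adjusted p under 0.05 by edgeR. At T1, 39 of 43 points lie right of 0 and 7 are filled; at T2, 35 lie right of 0 and none is filled (0 members called).

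A run of 3 members without a neighbouring mRNA (XBXL10_1g11532, XBXL10_1g11533 and XBXL10_1g11536) held the 3 lowest changes at T1, and these rested on input replicate 1. XBXL10_1g11533 had 0.0827, 0.199 and 0.107 CPM at T1, against 24.8, 0.0540 and 0.128 CPM in the input. The other 2 input libraries were thus as low as T1. The fitted log2 fold change of -5.97 (standard error 2.60, adjusted p = 0.141, edgeR) became 0.51 without input replicate 1. XBXL10_1g11532 had 0.0827, 0.114 and 0.0536 CPM at T1, against 16.0, 0.0405 and 0.0106 CPM in the input (log2 fold change -5.96, standard error 2.90, adjusted p = 0.181, edgeR), which became 1.66 without that library. XBXL10_1g11536 had 0.221, 0.883 and 0.590 CPM at T1, against 4.68, 0.891 and 0.160 CPM in the input (log2 fold change -1.75, standard error 1.84, adjusted p = 0.571, edgeR), which became 0.10. At T2 the same 3 members were high in replicates 1 and 3 and low in replicate 2: XBXL10_1g11533 had 29.7, 0.0649 and 71.4 CPM there. High and low libraries of this run thus occurred both in the input and at T2. The fourth negative value was that of XBXL10_1g12555, at -0.15.

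Some members were present in some T1 libraries and nearly absent from others. More than 3 reads in every library of a condition were found for 40 members (93.0%) before filtration, 26 (60.5%) at T1 and 33 (76.7%) at T2, beside 92.8%, 56.3% and 78.7% of all genes in the same order. At T1, 8 members had 3 reads or fewer in 1 library, 9 in 2 libraries and 0 in all 3. The matching split was not counted for all genes. How often genes in general were present in only some T1 libraries is thus not known. The run next to cct6a.S shows the pattern: XBXL10_1g10286 had 281, 0 and 1 reads and XBXL10_1g10287 had 698, 1 and 0 reads in T1 replicates 1, 2 and 3, while their neighbour XBXL10_1g10288 had 175, 510 and 484 reads and XBXL10_1g10289 had 421, 654 and 1055 reads. Members of a single run thus differed in which T1 library held them. XBXL10_1g1152, next to LOC108710474 (NDST3), had 0, 777 and 1443 reads at T1, against 55, 131 and 158 reads in the input.

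Large differences between replicates were also frequent over all genes. A level that differed at least 100-fold between libraries of a condition was seen for 2 members (4.65%) and 5.44% of all genes in the input, 15 members (34.9%) and 47.8% of all genes at T1, and 13 members (30.2%) and 21.5% of all genes at T2. A library without reads counted as such a difference, also where no library of the condition had reads. These shares thus count absence together with fold differences. The median SD of the members' log2(CPM + 1) values was 0.27 for input replicates (all genes 0.28), 1.45 for T1 replicates (all genes 0.97) and 1.16 for T2 replicates (all genes 0.56). At T1 the members thus had the larger median SD but the smaller share with such a difference. How they compare with all genes in their spread at T1 depends on the measure. At T2 the members had the larger value on both measures, and in the input the smaller value on both.

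The replicates also differed as a whole. Against the mean input, the median log2 ratio of the members (1 CPM added) was 1.97, 1.14 and 3.36 in T1 replicates 1, 2 and 3, where all genes had medians of -0.28, -0.39 and -0.81. T1 replicate 3 held the highest T1 value of 25 of the 43 members. Its TMM factor was 0.795, against 1.01 and 0.943 in T1 replicates 1 and 2. This factor raises its values for single members relative to their share of its reads. T1 replicate 3 was also the shallowest library (23509338 reads on genes), with the most unmapped (20.1%) and multimapping (6.76%) reads. The part of these in the higher values of T1 replicate 3 was not tested. Without it the T1 median of the members' fitted log2 fold changes was 2.87, the lowest value that leaving out single libraries gave, against 3.63 with all libraries.

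The other runs had the same direction at T1 in most of their members. All 5 members next to rpl4.L had positive log2 fold changes, from 2.91 for XBXL10_1g13422 to 5.09 for XBXL10_1g13427. XBXL10_1g13427 had 3.97, 24.1 and 14.1 CPM at T1, against 0.309, 0.499 and 0.426 CPM in the input (adjusted p = 0.0578, edgeR), and XBXL10_1g13426 had 6.76, 31.0 and 30.2 CPM, against 0.883, 1.09 and 0.543 CPM. Both were without overlap, although T1 replicate 1 was well below the other two. The 3 members of the run from XBXL10_1g12304 to XBXL10_1g12306, which has no neighbouring mRNA, had log2 fold changes of 3.18, 3.97 and 4.83, and none of them overlapped with the input. Of the 5 members from XBXL10_1g10307 to XBXL10_1g10312, XBXL10_1g10307 was the only one without overlap, with 17.8, 18.7 and 32.3 CPM at T1, against 1.49, 2.85 and 1.80 CPM in the input (log2 fold change 3.49, adjusted p = 0.0801, edgeR). In the run of XBXL10_1g12554 and XBXL10_1g12555 both members overlapped with the input, and XBXL10_1g12554 had 4.85, 0.0285 and 0 CPM at T1, against 0.177, 0.594 and 0.5001 CPM in the input. By summed CPM, the T1 libraries of 13 of the 18 runs lay above all input libraries, where 15.7% of all single genes did. No such share was computed for sums over neighbouring genes, and the most abundant members weigh most in a sum.

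The mRNAs next to the runs were also mostly more abundant at T1, by less than the runs in most cases. Of 14 such mRNAs, 13 passed the filter, 12 had a positive log2 fold change and 7 rose by edgeR's test (median 2.28, beside -0.09 over all genes). Over all genes, 48.0% had a positive log2 fold change and 6.44% were called higher. The 7 include rps3.S (log2 fold change 3.97, adjusted p = 0.00454), atp5f1b.S (2.41, adjusted p = 0.0031) and rpl4.L (2.11, adjusted p = 0.0030). In 10 of the 13 runs with a tested neighbour, the ratio of mean T1 to mean input was larger for the summed members than for the mRNA, and in 3 it was smaller. This count weighs sparse pairs like well-covered ones. The run next to LOC108704363, among the 10, had 420, 15 and 51 reads in T1 replicates 1, 2 and 3 and overlapped with the input. Its mRNA had 475, 0 and 2 reads there. The run next to rpl4.L had a ratio of 24.6, against 4.33 for the mRNA, and the run next to cct6a.S one of 10.3, against 1.83. For rps3.S the ratios were close, with 21.4 for the run and 15.7 for the mRNA. Among the runs with the smaller ratio was that next to MGC80700 (RPL21), with 2.14 for the run and 2.80 for the mRNA. That run is XBXL10_1g10987 alone, with 121, 0 and 0 reads in T1 replicates 1, 2 and 3, so its ratio rests on T1 replicate 1. The mRNA next to XBXL10_1g10072, LOC108709567 (EPB41), lay the other way: the ratio was 16.3 for that member and 0.0313 for the mRNA. These differences between runs and mRNAs were not tested.

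**Figure D4:**
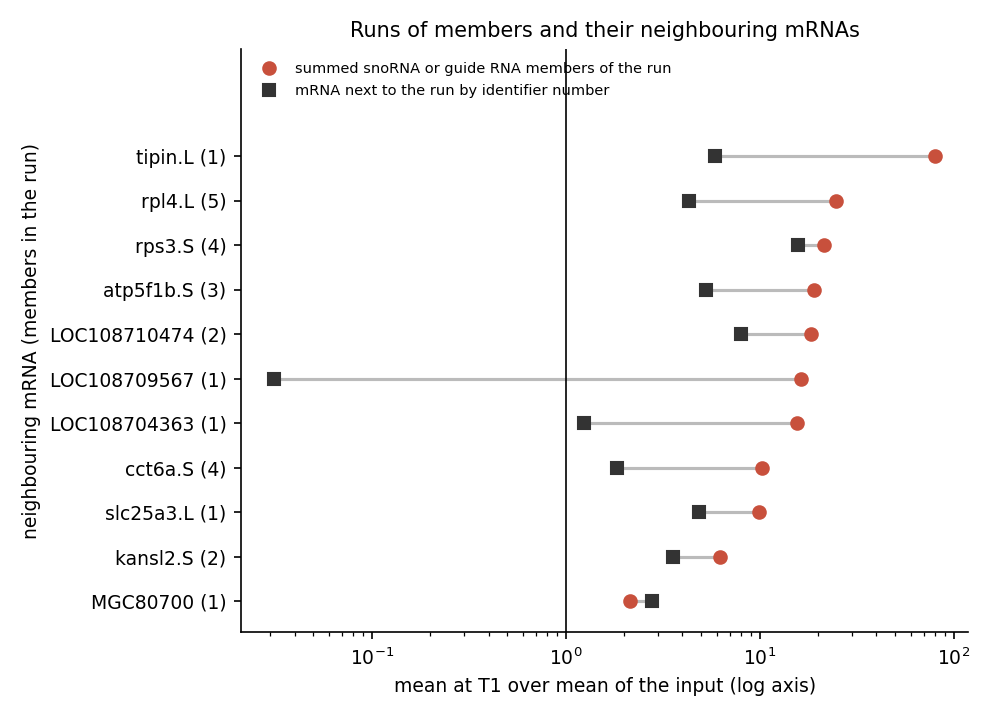
Ratio of mean T1 to mean input CPM (log axis) for the summed members of each run (circles) and for the mRNA that precedes the run by identifier number (squares), for 11 of the 13 runs whose mRNA was tested; the number of members is in brackets. The circle lies right of the square in 10 of these 11 rows, all but MGC80700; the 2 runs not drawn had the smaller ratio too.

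The mRNAs of 12 snoRNP and ribosome assembly factors were looked at too. Their values describe these mRNAs in the filtrates, and not the proteins they encode or the snoRNA particles. At T1, 6 had positive and 6 had negative log2 fold changes, with a median of 0.11. Over all genes 48.0% were positive, with a median of -0.09. Of the 12, 1 was called higher and 0 lower, beside 6.44% of all genes called higher and 5.08% called lower. By these counts the list as a whole stood close to all genes. It was picked by hand and does not hold every such factor of the table. The mRNA called was gar1.L, which encodes a core protein of box H/ACA particles. It had 201, 261 and 260 CPM at T1, against 28.9, 34.5 and 37.8 CPM in the input (log2 fold change 2.83, standard error 0.44, adjusted p = 0.00484, edgeR). LOC108710993, the entry for NHP2, another core protein of these particles, had 10.8, 39.3 and 0.322 CPM at T1, against 40.5, 42.99 and 21.9 CPM in the input. The mRNA of nufip1.S, an assembly factor of box C/D particles, had 52.3, 22.7 and 37.5 CPM, against 94.3, 78.3 and 101 CPM, without overlap (log2 fold change -1.28, adjusted p = 0.0601, edgeR). Those of npm1.L (nucleophosmin, a nucleolar chaperone) and utp20.L (a factor of the small subunit precursor) had log2 fold changes of -0.95 and -1.34, and those of the exosome subunits exosc8.S and exosc9.L of 1.66 and 1.80, none past the test. Among the other non-coding entries of the table, the 3 rRNA entries had a median log2 fold change of 6.15 at T1, with 1 called higher, in libraries depleted of ribosomal RNA. The 52 lnc_RNA entries had a median of 1.00 (2 called higher and 2 lower), and the 1890 mRNA entries tested had a median of -0.15 (116 higher and 114 lower). The shares of all genes called, 6.44% higher and 5.08% lower, apply to these counts too.

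The comparison of T2 with the input asks what share the members hold in the late filtrate. Of the 43 members, 35 had a positive log2 fold change, where 57.1% of all genes did (median 1.55, beside 0.14 over all genes). Of the members, 0 passed edgeR's test, which called 0% of all genes. At an unadjusted p under 0.05, 2 members were higher and 0 lower, where 3.9% of all genes were higher and 3.9% lower. DESeq2's Wald test called 1 member, XBXL10_1g11186, and 1.24% of all genes. The T2 libraries lay above all input libraries for 4 members, beside 14.1% of all genes, and below them for 0, beside 12.8%. The 4 members were XBXL10_1g11186, XBXL10_1g11188, the guide RNA XBXL10_1g13418 and XBXL10_1g13427. XBXL10_1g11186 had 29.1, 13.8 and 146 CPM at T2, against 12.8, 4.06 and 4.65 CPM in the input (log2 fold change 3.13, adjusted p = 0.323, edgeR). XBXL10_1g13427 had 1.02, 1.44 and 3.05 CPM at T2, against 0.309, 0.499 and 0.426 CPM in the input. The direction at T2 came mainly from replicate 3, which held the highest T2 value of 38 of the 43 members. The members' median log2 ratio to the mean input was 0.20, -0.24 and 1.74 in T2 replicates 1, 2 and 3. Without T2 replicate 3 the median of the fitted changes was 0.12, with 24 members above 0. That library had 60330615 reads on genes and 9.24% unmapped reads, against 7.04 and 8.84% in the other T2 libraries.

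Between the filtrates, 36 members had lower and 7 had higher fitted values at T2 than at T1, where 52.8% of all genes were higher. The median log2 fold change was -1.87, beside 0.09 over all genes. Of the members, 0 passed edgeR's test, which called 0.0993% of all genes. At an unadjusted p under 0.05, 7 members were lower, beside 8.11% of all genes, and 1 was higher, beside 14.6% of all genes. DESeq2's Wald test called 15 members, of which 2 were higher at T2, and 17.5% of all genes. The T2 libraries lay above all T1 libraries for 0 members, beside 13.2% of all genes, and below them for 5, beside 7.73%: XBXL10_1g10288, XBXL10_1g10307, XBXL10_1g11105, XBXL10_1g11469 and XBXL10_1g13427. The smallest adjusted p was that of XBXL10_1g11105, with 4.21, 5.72 and 0.183 CPM at T2, against 96.5, 32.3 and 248 CPM at T1 (log2 fold change -5.22, adjusted p = 0.0860, edgeR). XBXL10_1g10288 had 0, 0.714 and 1.23 CPM at T2, against 4.83, 14.5 and 25.9 CPM at T1. The 3 highest values at T2 over T1 were those of the run from XBXL10_1g11532 to XBXL10_1g11536, at 5.997, 7.99 and 4.13, which rested on T2 replicates 1 and 3. Without T2 replicate 3 the median of the members was -3.31. The comparisons with the input share its 3 libraries. The comparison of T2 with T1 shares the T1 libraries with that of T1 with the input. It shares the T2 libraries with that of T2 with the input. These comparisons are thus not independent of each other.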

How the data were processed

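RNA of 9 libraries (input, T1 and T2, 3 replicates each) was rRNA-depleted and prepared with a stranded first-strand kit. The authors trimmed reads with Trim Galore, aligned them with STAR to *X. laevis* v10.1 and deposited whole read counts per gene, not normalized, in which multimapping reads are not assigned. The authors also deposited counts divided by DESeq2 size factors, a normalized signal. Dividing these by their smallest value per library gave whole reads (within 0.01) for 100% of values, and all 43 members had the raw counts. The 4 summary rows that name no gene were left out of library sizes; those without a feature held 19.2 to 36.6% of the reads. There were 0 columns without a sample.

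Raw counts were tested with edgeR 4.0.16 in R 4.3.3: TMM, filterByExpr (minimum count 10, total 15, 20148 genes left), quasi-likelihood fit to all 9 libraries by condition, Benjamini-Hochberg adjustment over all genes, threshold 0.05. Standard errors are the size of the log2 fold change over the square root of F. The fit was also run on simulated counts with the same spread in every condition, unlike these libraries. No result here rests on that run. DESeq2 1.42.0, other scalings and filters, fewer libraries and a replicate block were alternatives. Statistics in full are given for members called, the 3 highest and 3 lowest at T1, the 3 most abundant in the input and the guide RNA. XBXL10_1g10656 and further members with values were chosen after these were seen. Members, lists and rules were chosen with earlier results of these data known. Of the authors' table of fold changes, only identifiers, symbols and RNA types were used. Single values of 3 neighbouring mRNAs are not reported here. p-values set a fitted change against the spread between these replicates, estimated from all 9 libraries. The fit thereby treats the spread of a gene as equal across conditions, which these libraries do not show. Among the members, the median SD of log2(CPM + 1) was 1.45 for T1, 1.16 for T2 and 0.27 for input replicates. The standard errors and p-values at T1 thus do not measure the T1 spread alone. Whether the 7 calls hold with a separate spread for T1 was not tested. Without the block they treat the libraries as independent, although conditions share extracts.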

Additional observations from a re-analysis of the deposited data

How the results depend on the processing

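Of the results about the members as a group, the T1 median lay between 2.81 and 3.91 under the alternatives run, against 3.63 in the main fit. The summed T1 ratio lay between 5.40 and 10.7, against 8.46. The summed T2 ratio lay between 1.21 and 3.62, against 2.76, and was lowest without T2 replicate 3. The count of 7 members called at T1 was 24 with DESeq2's Wald test and ranged from 0 to 12 when single libraries were left out. The 0 counts came from leaving out an input library. The 12 came from leaving out T1 replicate 1 or 2, where 18.8% and 12.4% of all genes were called. Every fit without a single library holds equally many samples. At T2 against input, 1 member was called with DESeq2's Wald test, and the median ranged from 0.12 to 1.97 without single libraries. At T2 against T1, 15 members were called with DESeq2's Wald test, between 0 and 1 without single libraries (1 without T1 replicate 1 or 2), and the median ranged from -3.31 to -1.32. On reads recovered from the normalized table the test called 2358 genes and 7 members at T1, beside 2320 genes and 7 members on the raw counts. Apart from the settings named, the causes were not tested.

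With a replicate block in the fit, 3 members were called at T1 (XBXL10_1g11186, XBXL10_1g11190 and XBXL10_1g12477) and 0 in the other comparisons. Whether the replicate numbers pair the libraries could not be settled. Same-numbered libraries of T2 and T1 had correlations of 0.11, 0.11 and 0.09 over all genes in their deviations from the condition means. The other pairs of T2 and T1 libraries all had negative ones. Deviations within a condition cancel out in sum, so these negative signs follow in part from the positive ones and are no separate evidence on pairing. For T1 and input the same-numbered correlations were 0.008, 0.21 and 0.07, and for T2 and input 0.21, 0.39 and -0.04. Here T1 replicate 1 and T2 replicate 3 correlated better with an input library of another number.

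Among the 12 members with statistics in full, signs that turned were those of members near 0 or resting on single libraries. The signs of the other members were not followed one by one. At T1 against input, XBXL10_1g11532 ranged from -6.54 to 1.66, XBXL10_1g11533 from -6.55 to 0.51 and XBXL10_1g11536 from -2.30 to 0.10 without single libraries, each positive value without input replicate 1. At T2 against input, XBXL10_1g11532 (0.04) was -0.027 with median-of-ratios size factors and with DESeq2, -0.0076 with only the compared conditions, and from -0.90 to 7.66 without single libraries. XBXL10_1g11105 (near 0 at T2) was 0.039 with library size only, 0.26 with the replicate block, 0.0017 with reads recovered from the normalized table, and from -0.65 to 0.55 without single libraries. XBXL10_1g11505 ranged from -0.21 to 1.31. Depth limits the sparse members most: 3 reads in T1 replicate 3 were worth 0.128 CPM.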
